A study of Rattus norvegicus with 36 samples.

Results

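Serotonin acts in the forebrain through a family of receptors, and 4 of their genes are described here over brain region and risk preference: Htr1a, Htr1b, Htr2a and Htr2c. They were chosen by Ensembl identifier, ENSRNOG00000010254 for Htr1a, ENSRNOG00000013042 for Htr1b, ENSRNOG00000010063 for Htr2a and ENSRNOG00000030877 for Htr2c, and all 4 were present among the 32623 genes counted. The files hold identifiers alone, and the gene table used here pairs none of them with a symbol, so the names could not be checked against an annotation. The rats, of the strain entered as Sparague Dawley, had learned the rat gambling task, in which a touch-screen chamber offers 4 light signals that differ in the size and probability of reward and punishment. After choices became stable, each animal was classed as risk-averse or risk-seeking, and total RNA from the prefrontal cortex (PFC; the extraction protocol names its medial part) and the nucleus accumbens (NAc), which belongs to the ventral striatum, was sequenced. There were 9 libraries in each of the 4 groups (risk-averse PFC, risk-seeking PFC, risk-averse NAc, risk-seeking NAc), from 9 risk-averse and 10 risk-seeking animals, 17 of which gave both regions. All groups were trained, no untrained animals are among the samples, and the labels used here give neither age nor sex. Preference was observed in the animals and not assigned to them.

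Htr1a and Htr1b encode receptors coupled to inhibitory G proteins, which lower cyclic AMP and, for Htr1a, open potassium channels. The Htr1a product sits on cell bodies and dendrites, both of serotonin neurons in the raphe and of cortical pyramidal cells, whereas the Htr1b product is carried to axon terminals, where it restrains transmitter release. Htr2a and Htr2c encode receptors coupled to Gq, which activate phospholipase C and raise intracellular calcium. The Htr2a product is abundant on cortical pyramidal neurons and is the target of psychedelic drugs and of many antipsychotics, and the Htr2c product is prominent in striatal neurons and in the choroid plexus, has transcripts that undergo RNA editing, and is known to temper dopamine signalling. Serotonin axons in PFC and NAc come from raphe neurons whose cell bodies lie outside both regions.

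Upstream sequence is shown for Htr1b and Htr2c, the 2 of the 4 genes with an entry in the promoter table used here (Htr1a and Htr2a were not matched). Both were higher in NAc. The sequence comes from RefSeq on the GRCr8 build, not the build of the counts, and covers the 250 bases before each annotated start, written 5′ to 3′ on the gene's strand. The Htr1b stretch is chr8:91414816-91415065 on the minus strand and the Htr2c stretch is chrX:115452940-115453189 on the plus strand. Capitals mark the CCAAT box read on the opposite strand (ATTGG).
Htr1b: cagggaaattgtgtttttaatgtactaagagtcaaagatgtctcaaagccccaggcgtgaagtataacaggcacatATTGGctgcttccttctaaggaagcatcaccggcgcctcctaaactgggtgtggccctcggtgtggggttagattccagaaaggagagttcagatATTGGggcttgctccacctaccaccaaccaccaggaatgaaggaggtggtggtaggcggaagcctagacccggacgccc
Htr2c: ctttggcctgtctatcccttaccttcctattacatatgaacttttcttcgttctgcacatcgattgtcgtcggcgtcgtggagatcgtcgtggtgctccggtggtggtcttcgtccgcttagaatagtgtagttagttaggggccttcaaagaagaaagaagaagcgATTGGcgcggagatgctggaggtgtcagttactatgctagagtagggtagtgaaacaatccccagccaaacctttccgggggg
Searched on both strands were CCAAT, the TATA box TATAAA, the GC box GGGCGG and the cyclic AMP response half-site TGACG; the matches found do not overlap. Htr1b held CCAAT at 2 places, beginning 174 and 79 bases before the start, and Htr2c held it at 1 place, beginning 83 bases before the start. Of 33469 rat promoters of the same length, 34.0% held CCAAT, so its presence is common. TATAAA (12.9% of promoters), GGGCGG (30.5%) and TGACG (18.2%) were in neither stretch. Htr2c held 15 CG dinucleotides and Htr1b 7, against a median of 5 over all promoters.

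Levels are given as CPM, counts scaled to a common library size with TMM factors, which correct for library composition. CPM does not remove gene length, so levels are compared between libraries and not between genes. Gene counts per library ran from 18436025 to 34761269. The members differed in coverage: Htr2c had 1126 to 16363 counts per library, Htr2a 736 to 3022, Htr1b 182 to 874 and Htr1a, the least covered, 32 to 443. The risk-averse animals B2 and B3 stood apart in both regions by their unassigned share, the percentage of uniquely aligned read pairs that HTSeq assigned to no counted feature. Such pairs need not lie outside annotated genes. The unassigned share was 29.1% (B2) and 26.8% (B3) in PFC and 33.0% and 29.6% in NAc. By group, PFC libraries had 25.0% ± 1.98 (risk-averse) and 23.3% ± 0.666 (risk-seeking), and NAc libraries 27.6% ± 2.61 and 25.7% ± 1.02 (SD, n = 9 each). In the same order, the share of ambiguous read pairs was 0.655% ± 0.042 and 0.719% ± 0.033 in PFC. In NAc it was 0.690% ± 0.037 and 0.741% ± 0.024. The share of alignments that were not unique was 12.9% ± 0.535 and 13.5% ± 0.185 in PFC, and 12.5% ± 0.391 and 12.8% ± 0.206 in NAc. Each share differed with preference, so a fit with it as a covariate cannot fully separate the 2. In none of the 16 combinations of gene and group did 1 library lie beyond the 95% bound of Dixon's test. Markers of cortical neurons, spiny neurons, glia and choroid plexus were not analysed here, since they are named by symbol, so the labelled regions were not checked against them. In bulk tissue, fewer cells of a type and less RNA per cell cannot be told apart.

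The first comparison asked where each receptor gene was more abundant. The 2 genes described from each receptor family divided between the regions: Htr1a and Htr2a were higher in PFC, and Htr1b and Htr2c were higher in NAc. Other genes of these families were not analysed here. Of the 4 genes, 2 were higher in PFC at an adjusted p under 0.05 (edgeR, quasi-likelihood), where 38.2% of the 15470 genes tested were, and 2 were lower, where 39.4% were. A region difference is therefore common in these data, and the sizes say more than the calls. How many of all genes had regions that did not overlap was not counted, so non-overlap below is description only. Htr2c and Htr1a were among the larger differences: 96.6% and 96.1% of the genes tested had a smaller absolute log2 fold change, against 86.6% for Htr1b and 77.6% for Htr2a. The median absolute log2 fold change over all genes tested was 0.32.

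Among the receptors coupled to inhibitory G proteins, Htr1a had its higher level in PFC. In risk-averse PFC it ranged from 8.02 to 15.9 CPM with a median of 12.9, and in risk-seeking PFC from 8.93 to 13.0 CPM with a median of 10.9. In NAc it ranged from 1.42 to 2.79 CPM with a median of 2.02 in risk-averse and from 1.02 to 3.28 CPM with a median of 2.23 in risk-seeking animals. The lowest PFC library, that of B2, was thus well above the highest NAc library, that of B5, and the regions did not overlap. The PFC mean was 11.7 ± 2.04 CPM and the NAc mean 2.14 ± 0.655 CPM (SD, n = 18 each), a log2 fold change of 2.45 ± 0.12 (SE; 5.45-fold; edgeR adjusted p = 1.34e-21).

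Htr1b, its partner among these receptors, ran the other way. It ranged from 9.08 to 13.2 CPM (median 11.0) in risk-averse and from 8.72 to 11.6 CPM (median 10.4) in risk-seeking PFC. In NAc the range was 17.6 to 29.9 CPM (median 22.9) in risk-averse and 18.4 to 26.9 CPM (median 23.3) in risk-seeking animals. All 18 NAc libraries were above all 18 PFC libraries. The means were 10.6 ± 1.40 CPM in PFC and 23.4 ± 3.73 CPM in NAc (SD, n = 18 each), a log2 fold change of -1.15 ± 0.07 (SE; 2.22-fold lower in PFC; edgeR adjusted p = 1.39e-18).

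Of the receptors coupled to Gq, Htr2a showed the smallest region difference of the 4 genes. It ranged from 60.8 to 97.5 CPM (median 75.3) in risk-averse and from 67.8 to 109.0 CPM (median 85.2) in risk-seeking PFC. In NAc it ranged from 37.2 to 65.1 CPM (median 48.2) in risk-averse and from 35.9 to 62.5 CPM (median 45.1) in risk-seeking animals. The regions overlapped through 1 PFC library: 17 of 18 PFC libraries were above every NAc library, and the PFC library of R9, at 60.8 CPM, was not. The means were 82.4 ± 11.6 CPM in PFC and 49.1 ± 9.38 CPM in NAc (SD, n = 18 each), a log2 fold change of 0.74 ± 0.08 (SE; 1.67-fold; edgeR adjusted p = 2.58e-11).

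Htr2c had the largest region difference of the 4 genes. It ranged from 38.6 to 83.8 CPM (median 65.8) in risk-averse and from 50.5 to 99.3 CPM (median 69.9) in risk-seeking PFC. In NAc it ranged from 270.3 to 485 CPM (median 393) in risk-averse and from 322 to 493.1 CPM (median 401) in risk-seeking animals. The highest PFC library, that of R2, was far below the lowest NAc library, that of B2, and the same animal R2 held the highest Htr2c value in NAc. The means were 66.2 ± 14.5 CPM in PFC and 407 ± 61.0 CPM in NAc (SD, n = 18 each), a log2 fold change of -2.62 ± 0.09 (SE; 6.16-fold lower in PFC; edgeR adjusted p = 1.98e-25).

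**Figure D1:**
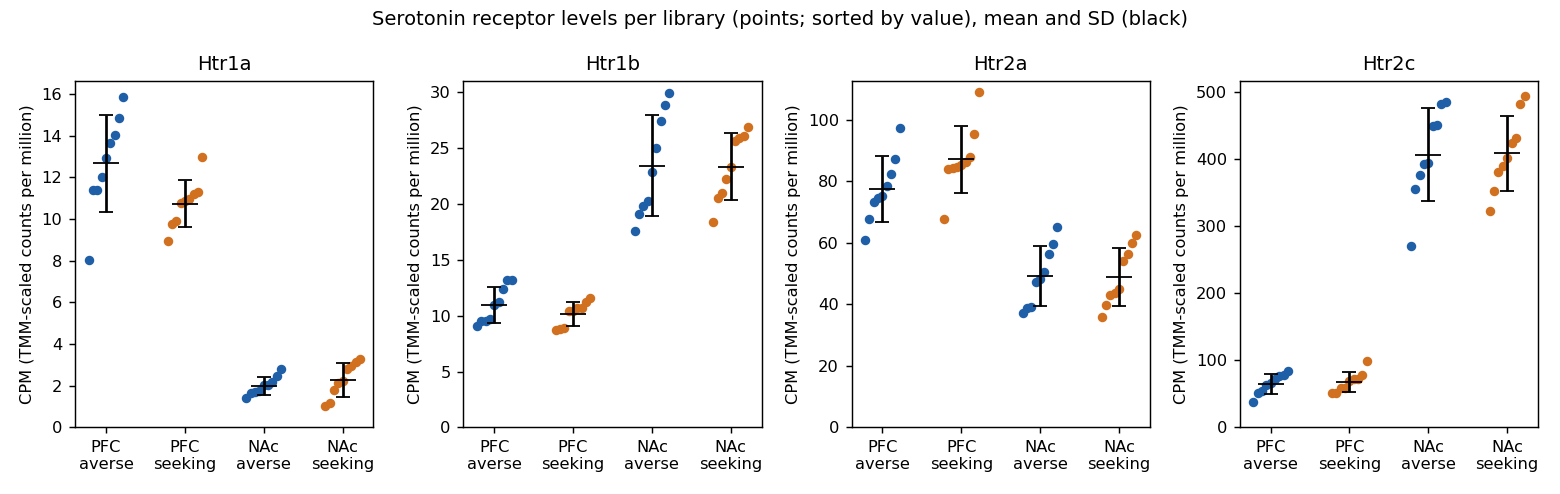
Level of each serotonin receptor gene in CPM (linear axis from 0) in every library, by region and preference, with points ordered by value and the group mean and SD in black (n = 9 libraries per group). Htr1a and Htr2a sit higher in PFC and Htr1b and Htr2c higher in NAc, while the risk-averse and risk-seeking groups overlap within each region for all 4 genes.

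The 17 animals with both regions allowed the same comparison within each animal. Htr1a was higher in PFC in 17 of 17 animals, by 1.497 (BR5) to 3.32 (R7) on the log2 CPM scale, and Htr2a in 17 of 17, by 0.11 (R9) to 1.60 (R1). Htr1b was lower in PFC in 17 of 17, with differences of -1.56 (N3) to -0.64 (B2), and Htr2c in 17 of 17, with differences of -3.05 (BR4) to -2.30 (B9). The exact two-sided sign-flip permutation test over these pairs gave p = 1.53e-05 for each gene, the smallest that 131072 sign patterns allow. How many of all genes reach 17 of 17 or this p was not counted. An edgeR fit with the animal as a replicate block called 12691 of 15470 genes at an adjusted p under 0.05. A region difference within animals was therefore common among all genes. Relative to their size, the within-animal differences were most even for Htr2c (-2.63 ± 0.20, SD, n = 17) and least even for Htr2a (0.77 ± 0.34). The others were 2.41 ± 0.49 for Htr1a and -1.12 ± 0.25 for Htr1b.

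**Figure D2:**
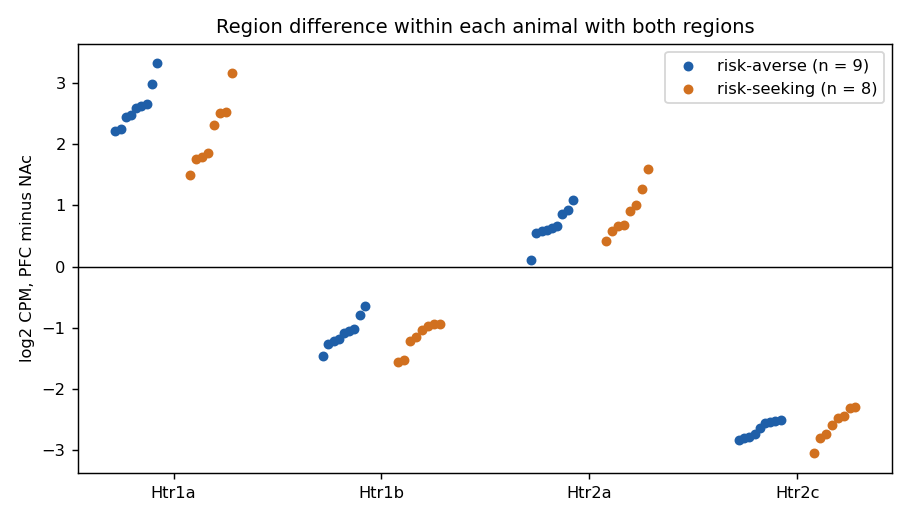
Difference in log2 CPM between PFC and NAc of the same animal, for 9 risk-averse and 8 risk-seeking animals; each point is 1 animal and points are ordered by value. Every animal lies above 0 for Htr1a and Htr2a and below 0 for Htr1b and Htr2c, with the animal nearest to 0 being R9 for Htr2a at 0.11.

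The opposite directions within each family changed the balance of its members, in a measure from which gene length cancels when regions are compared. The log2 CPM difference of Htr2a minus Htr2c was 0.33 ± 0.33 in PFC and -3.06 ± 0.22 in NAc (SD, n = 18 each). Within animals the shift of that balance between regions was 3.40 ± 0.39 (SD, n = 17), with a lowest value of 2.74 and a highest of 4.08. Htr1a minus Htr1b was 0.14 ± 0.27 in PFC and -3.45 ± 0.51 in NAc (SD, n = 18 each), and its shift within animals was 3.53 ± 0.53 (SD, n = 17; 2.65 to 4.50). Both balances thus moved by a like amount, with non-overlapping regions. These are descriptions of the fold changes above and were not tested separately.

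The next comparison asked whether the receptor genes differed between risk-seeking and risk-averse rats within PFC. At an adjusted p under 0.05, edgeR called 0 of the 4 receptor genes and 23.3% of the 15128 genes tested. DESeq2 also called 0 of 4 (26.4% of all genes), as did limma-voom (23.0%). At an unadjusted p under 0.05 there was 1 of 4, Htr1a, in edgeR (36.9% of all genes tested), DESeq2 (37.2%) and limma-voom (36.8%) alike.

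Htr1a had the largest PFC difference of the 4 genes. Risk-seeking animals had 10.7 ± 1.14 CPM against 12.7 ± 2.33 CPM in risk-averse ones (SD, n = 9 each), and 8 of the 9 risk-seeking values were under the median of the risk-averse group. The groups overlapped: the risk-averse animal B2 had the lowest value of all, 8.02 CPM, and the risk-seeking animal R2, at 13.0 CPM, lay above the risk-averse median of 12.9 CPM. This gave a log2 fold change of -0.25 ± 0.10 (SE; edgeR adjusted p = 0.0758). The exact two-sided permutation test on log2 CPM over 48620 regroupings gave p = 0.0599.

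Leaving out single animals moved this Htr1a value in both directions, from -0.32 without B2 to -0.20 without the risk-averse animal N6 (edgeR adjusted p = 0.147). Without B2 the log2 fold change was -0.32 and passed (edgeR adjusted p = 0.0157; 18.8% of all genes were called), and without the risk-seeking animal R2, which had the highest value of its group at 13.0 CPM, it was -0.29 and passed narrowly (edgeR adjusted p = 0.0488; 21.7% of all genes were called). With the unassigned share as a covariate it was -0.45 and passed (edgeR adjusted p = 0.0275), and 2.21% of all genes tested were called in that fit. It did not pass with the share of ambiguous read pairs (-0.20, edgeR adjusted p = 0.768) or of alignments that were not unique (-0.29, edgeR adjusted p = 0.400) as the covariate, nor without the 4 risk-averse animals of highest unassigned share (-0.30, edgeR adjusted p = 0.143). Almost no gene passed in these fits: 0 of 15128, 1 of 15128 and 1 of 15403 in that order. The unadjusted edgeR p for Htr1a was 0.157, 0.0302 and 0.00455 in the same order, against 0.0214 in the main fit. Htr1a passed in none of the other 16 fits that left out 1 animal. The sign was negative in every alternative run for Htr1a in PFC. The part of read composition in this difference was not tested.

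The other receptors showed smaller PFC differences. For Htr2a the risk-seeking mean was 87.2 ± 10.9 CPM and the risk-averse mean 77.6 ± 10.8 CPM (SD, n = 9 each), and 8 of 9 risk-seeking libraries lay above the risk-averse median. The log2 fold change was 0.16 ± 0.08 (SE; edgeR adjusted p = 0.155). Htr1b means, in the same order, were 10.2 ± 1.08 and 11.0 ± 1.63 CPM (SD, n = 9 each), with a log2 fold change of -0.12 ± 0.09 (SE; edgeR adjusted p = 0.331), and its sign turned with the ambiguous share (0.10) or the not-unique share (0.06) as a covariate. Those of Htr2c were 67.7 ± 15.3 and 64.8 ± 14.5 CPM (SD, n = 9 each), with a log2 fold change of 0.05 ± 0.14 (SE; edgeR adjusted p = 0.825). Its sign turned with the unassigned share as a covariate (-0.23, edgeR adjusted p = 0.201), with the not-unique share (-0.12), without those 4 animals (-0.16), and on leaving out B2 (-0.02) or R2 (-0.03) alone.

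Within NAc the same comparison called none of the 4 genes in edgeR, where 0% of 15418 genes passed, none in limma-voom (0% of all genes) and none in DESeq2, which gave no adjusted p for Htr1a and called 3.67% of all genes. At an unadjusted p under 0.05 there were 0 of 4 by each of these tools, against 17.8% of all genes in edgeR, 18.5% in DESeq2 and 17.4% in limma-voom. Htr1a had 2.28 ± 0.828 CPM in risk-seeking animals against 2.004 ± 0.431 CPM in risk-averse ones (SD, n = 9 each), a log2 fold change of 0.18 ± 0.20 (SE; edgeR adjusted p = 0.695). This value ranged from 0.10 without B5 to 0.27 without BR4, and was 0.01 without the 4 animals of highest unassigned share. Its spread was wide in risk-seeking NAc, where 4 libraries were above and 2 below the whole risk-averse range. For Htr1b, Htr2a and Htr2c the group means lay close together: 23.3 ± 2.98 against 23.4 ± 4.55 CPM for Htr1b (log2 fold change -0.01 ± 0.10, SE), 49.0 ± 9.49 against 49.2 ± 9.84 CPM for Htr2a (-0.01 ± 0.12) and 408 ± 56.1 against 406 ± 69.0 CPM for Htr2c (0.001 ± 0.095), each as risk-seeking against risk-averse with SD and n = 9. The edgeR adjusted p was 0.963, 0.966 and 0.997 in that order, and the signs of these 3 values changed on leaving out single animals.

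**Figure D3:**
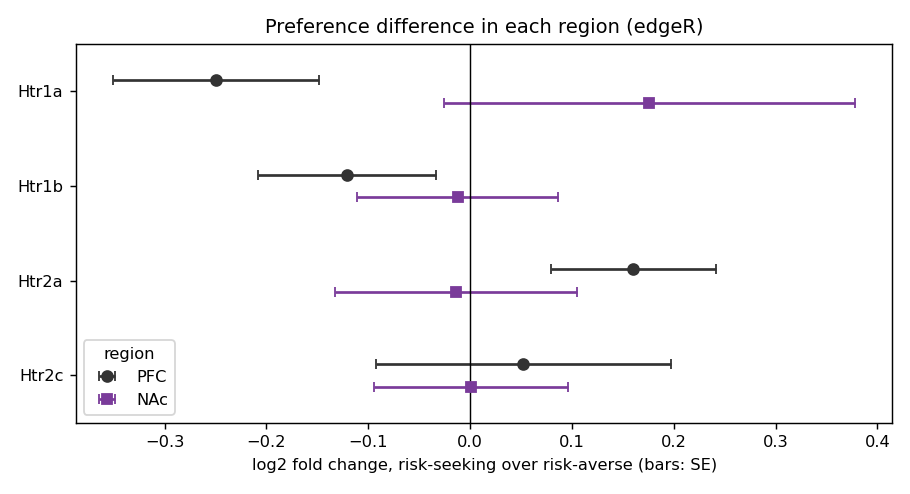
Fold change of each receptor gene between risk-seeking and risk-averse rats on the log2 scale, in PFC (circles) and NAc (squares), with SE bars from edgeR and n = 9 libraries per group. Htr1a in PFC lies lowest at -0.25 and Htr1a in NAc highest at 0.18, and none of the 8 values passed the adjusted threshold.

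An interaction term, fitted on all 36 libraries, asked whether the preference difference was unequal in PFC and NAc. None of the 4 genes passed in edgeR, where 0% of 15936 genes did, nor in DESeq2 or limma-voom (0% each). At an unadjusted p under 0.05 there were 0 of 4 in edgeR, where 2.43% of all genes were, 0 of 4 in limma-voom (2.29%) and 1 of 4, Htr1a, in DESeq2 (2.69%). Htr1a had the largest value, with a preference difference lower by 0.42 in PFC than in NAc on the log2 scale (interaction -0.42 ± 0.22 (SE), edgeR adjusted p = 0.981). With the animal as a replicate block the interaction was -0.48 for Htr1a (edgeR adjusted p = 0.400, with 0% of all genes called). At an unadjusted p under 0.05 that fit had 1 of 4, Htr1a, and 11.1% of all genes. In the paired animals, Htr1a was higher in PFC by 2.62 ± 0.35 in the 9 risk-averse and by 2.18 ± 0.55 in the 8 risk-seeking animals (log2 CPM, SD). The opposite signs of Htr1a in the regions are therefore not shown to differ. The interaction was -0.10 ± 0.14 (SE) for Htr1b, 0.18 ± 0.15 for Htr2a and 0.06 ± 0.18 for Htr2c (edgeR adjusted p = 0.981, 0.981 and 0.983).

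The genes differed in how far they varied among animals. Within PFC the coefficient of variation was 21.9% for Htr2c, 17.4% for Htr1a, 14.1% for Htr2a and 13.3% for Htr1b (n = 18 libraries), where counting error alone would give 2.42%, 5.77%, 2.17% and 6.06%. Within NAc it was 30.6% for Htr1a, 19.1% for Htr2a, 16.0% for Htr1b and 15.0% for Htr2c, against counting errors of 13.1%, 2.71%, 3.93% and 0.941%. Relative to the spread, counting error was thus largest for Htr1b in PFC and Htr1a in NAc, though well under it, and small for Htr2c and Htr2a in both regions. In the fit of the region comparison, the biological coefficient of variation (edgeR's estimate of spread beyond counting) was 18.2% for Htr2c, where genes of its abundance had 9.76%, and 15.7% for Htr2a, where they had 9.83%. For Htr1a it was 21.7% against 17.9% and for Htr1b 13.6% against 12.9%.

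Of the 4 genes, Htr2c alone had levels in PFC and NAc whose correlation over animals passed, and it did not pass with preference group means and the unassigned share regressed out (r = 0.240, adjusted permutation p = 0.804). Over the 17 animals, Htr2c in PFC and in NAc correlated at r = 0.811 and rho = 0.755 (permutation p = 8e-05, adjusted p = 0.00128 and, for rho, 0.0118 over the 16 relations computed among the 4 genes). Without B2 and R2, the 2 animals farthest from the PFC median, r was 0.633 (n = 15, permutation p = 0.0119). It was 0.947 in the 9 risk-averse and 0.615 in the 8 risk-seeking animals, and 0.872 and 0.245 in these groups without B2 and R2. Animals share many such patterns: the median r over 13994 genes was 0.502, and 6.87% of genes were at or above Htr2c.

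The relations of the other members between PFC and NAc did not pass. Htr1b in PFC and in NAc correlated at r = 0.341 (adjusted permutation p = 0.425) and at 0.501 with group means and the unassigned share regressed out (adjusted permutation p = 0.218), Htr1a at 0.00893 and Htr2a at 0.00327 (adjusted permutation p = 0.990 each). Htr1a and Htr2a were thus low among all genes, with 7.26% and 7.06% of genes at or below them. Htr1a had only 32 to 100 counts per library in NAc, with a counting error of 13.1%. The part of counting error in its r was not tested. For Htr2a r was 0.475 without R1 and R9, the animals with the highest and lowest PFC levels (n = 15, permutation p = 0.0750).

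**Figure D4:**
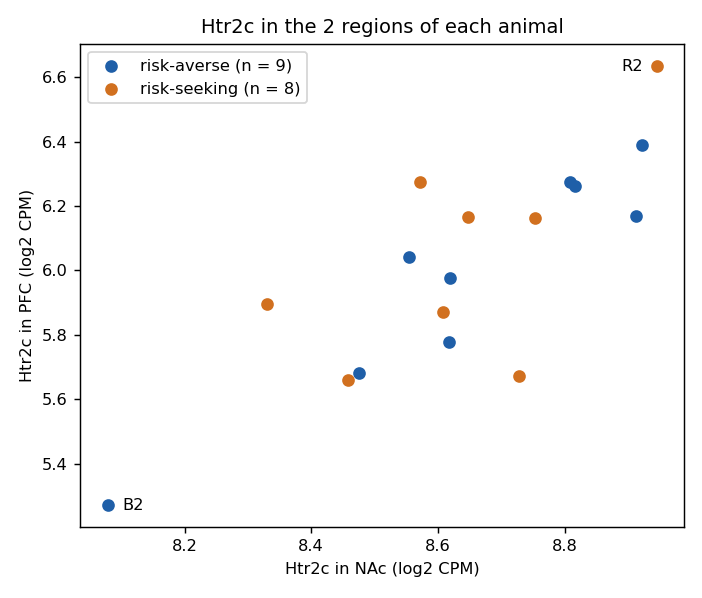
Htr2c in log2 CPM in NAc (horizontal) and PFC (vertical) of the 17 animals with both regions, by preference, with the animals B2 and R2 named. B2 is lowest and R2 highest in both regions, and r is 0.811 with them and 0.633 without them.

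Htr2c also moved with the unassigned share of its library, a relation looked at after the data had been seen. In PFC r was -0.712 and rho -0.548 (n = 18, permutation p = 0.000900, adjusted p = 0.00592 and, for rho, 0.0801 over 8 relations). In NAc r was -0.720 and rho -0.567 (n = 18, permutation p = 0.00148, adjusted p = 0.00592 and, for rho, 0.0801). Without B2 and B3 the values were -0.413 in PFC and -0.405 in NAc (n = 16, permutation p = 0.111 and 0.120), still negative but no longer past the threshold. Within the risk-averse group r was -0.906 in PFC and -0.931 in NAc (n = 9 each), and -0.603 and -0.719 without B2 and B3 (n = 7). Within the risk-seeking group it was -0.612 and -0.426 (n = 9 each). Over 13994 genes the median r was -0.0413 in PFC and -0.0899 in NAc, and 3.79% and 9.62% of genes were at or below Htr2c.

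Htr1a in PFC showed another pattern with the same share. Over all 18 libraries r was -0.372 and rho -0.00722 (adjusted permutation p = 0.207 and, for rho, 0.980). Within the groups r was -0.843 in risk-averse and -0.653 in risk-seeking animals (n = 9 each), values that were not tested. Without B2 and B3 the risk-averse value was -0.364 (n = 7), and the value over the remaining 16 libraries was 0.0760. No other relation of a member with the unassigned share passed (lowest adjusted permutation p = 0.141).

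**Figure D5:**
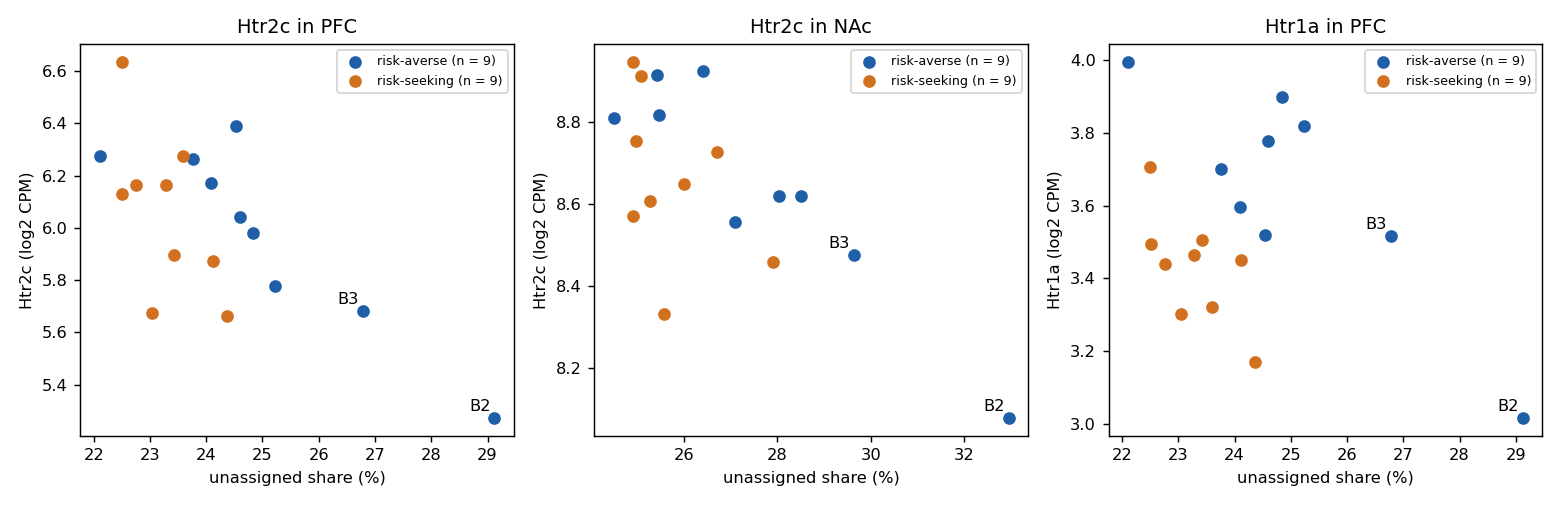
Htr2c in PFC, Htr2c in NAc and Htr1a in PFC (log2 CPM) against the unassigned share of the same library in percent, with 9 risk-averse and 9 risk-seeking libraries per panel and the animals B2 and B3 named. Both Htr2c panels fall with the share (r = -0.712 and -0.720 over 18 libraries), and B2, at the right end, is the lowest point in each panel.

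Among the members, Htr2a and Htr2c varied together in NAc. Over the 18 NAc libraries they correlated at r = 0.643 and rho = 0.647 (permutation p = 0.00355, adjusted p = 0.0284 and, for rho, 0.0381), and at 0.657 without N7 and R1, the animals farthest from the Htr2a median. The value was 0.780 in risk-averse and 0.470 in risk-seeking animals (n = 9 each). With group means and the unassigned share regressed out it was 0.486 and did not pass (adjusted permutation p = 0.218). In PFC the same genes correlated at 0.309 (adjusted permutation p = 0.425). Of the 16 relations, 2 passed at an adjusted p under 0.05, this one and that of Htr2c across regions. The share of all gene pairs that correlate as strongly within a region was not computed. The relation is therefore not shown to be particular to these receptor genes.

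For Htr1a and Htr2c, 1 gene of each family, the relation in PFC did not pass. Over 18 libraries r was 0.523 and rho 0.457 (adjusted permutation p = 0.140), and without B2 and N6 r was 0.263. With preference group means removed it was 0.646 and passed (adjusted permutation p = 0.0214), and with the unassigned share regressed out as well it was 0.0612 (adjusted permutation p = 0.949). In NAc r was -0.202, with 0.415 in risk-averse and -0.663 in risk-seeking animals (n = 9 each), and -0.699 with group means and the unassigned share regressed out (adjusted permutation p = 0.0230).

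The genes most alike in pattern to each member were looked for in the region where the member was higher, by Pearson's r of log2 CPM over its 18 libraries. They are given by identifier, as a description with no test, and differences in read composition between libraries were not removed. For Htr2c in NAc, among 13944 genes of at least 1 CPM, ENSRNOG00000011951 (r = 0.948) and ENSRNOG00000030880 (0.937) came first. For Htr2a in PFC, among 13777 genes, ENSRNOG00000011677 came first (0.939) and ENSRNOG00000009143 was next (0.854). For Htr1a in PFC the highest values were those of ENSRNOG00000018385 (0.862) and ENSRNOG00000019534 (0.861), and for Htr1b in NAc those of ENSRNOG00000012287 (0.856) and ENSRNOG00000014420 (0.853).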

How the data were processed

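RNA was measured in 36 libraries of PFC and NAc. Libraries were made with TruSeq from miRNeasy total RNA and read from both ends, per the labels' protocols. Per the submitters' processing notes, the tools were Trimmomatic, STAR 2.5.3a, HTSeq 0.9.0 and edgeR, and the build Rnor_6.0 (rn6). Annotation release and strand setting: not given in the sources used here. Reads shared with overlapping or antisense genes can therefore not be separated. The deposited values are raw counts per Ensembl gene, without normalisation. The 5 HTSeq summary categories stayed out of library sizes and tests. Symbols matched 0 of 32623 identifiers, so the other serotonin genes and marker lists were not analysed here.

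Genes passing filterByExpr were TMM-scaled and tested with edgeR 4.0.16 (glmQLFit, robust=TRUE, R 4.3.3), with Benjamini-Hochberg adjustment over all genes tested. SE was obtained by dividing the absolute log2 fold change by the root of F. Preference was fitted within each region. The region comparison used all libraries with preference as a covariate, and the interaction all libraries. Neither used a block in the fit reported. log2 CPM used a prior count of 2. Correlations used 100000 permutations. Titles pair regions by animal: deviations from group means correlated at 0.129 to 0.550 over the 17 pairs, and 16 of 17 NAc libraries correlated best with their own animal. In 153 library pairs per region, chi-square per degree of freedom was 6.16 to 59.5, above sampling noise, so all libraries were kept as separate. The labels tie libraries to animals.

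The members named, lists and alternatives were chosen with earlier results of these data known. The rule named the 4 members, whereas the genes most alike were picked from these data by their r. Alternatives were DESeq2 1.42.0, limma-voom (limma 3.58.1), RLE factors, other count filters, read-category and title-letter covariates, sets of animals left out, and exact permutation tests. Tests were checked on simulated counts.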

Additional observations from a re-analysis of the deposited data

How the results depend on the processing

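All values are log2 fold changes unless named otherwise. The 4 region differences kept direction and call under each alternative run for them (DESeq2, limma-voom, RLE factors, both other count filters, the sign-flip test and each animal left out; read-category and title-letter covariates and leaving out 4 animals were run for preference only), with the animal as a replicate block too (2.42 for Htr1a, -1.13 for Htr1b, 0.77 for Htr2a, -2.63 for Htr2c), and the block changed no call of the interaction. With the unassigned share as a covariate, the PFC preference value was -0.451 for Htr1a, which then passed, and -0.233 for Htr2c, and the NAc value was -0.150 for Htr2c. With the ambiguous share it was 0.103 for Htr1b in PFC, and 0.0808 for Htr1b and -0.112 for Htr2c in NAc. With the not-unique share it was 0.0559 for Htr1b and -0.118 for Htr2c in PFC, and 0.0324 and -0.0967 in NAc. Without the 4 animals of highest unassigned share, Htr2c was -0.157 in PFC and -0.144 in NAc. In NAc, Htr2c was -0.00137 with DESeq2 and -0.00139 with RLE factors, and Htr1b was 0.000251 with limma-voom and 0.00665 in log2 CPM (exact permutation test). Leaving out 1 animal gave -0.316 to -0.200 for Htr1a and -0.0334 to 0.101 for Htr2c in PFC, and -0.0577 to 0.0371 for Htr1b, -0.0619 to 0.0445 for Htr2a and -0.0592 to 0.0389 for Htr2c in NAc. The causes were not tested.

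Over all genes in PFC, 3521 were called, against 334 with the unassigned share as a covariate, 1 with the not-unique share, 0 with the ambiguous share, 1 without those 4 animals and 2264 without B3. In NAc 0 were called, 566 by DESeq2 and 944 by edgeR without R9. Of the 16 relations, 2 passed, and 3 with group means removed. With the unassigned share regressed out as well, both were lost and 1 other passed, Htr1a and Htr2c in NAc (r = -0.699). The correlation r then turned sign to 0.0908 for Htr1a and Htr2a in PFC (0.122 with group means alone removed), -0.0185 for Htr1b and Htr2c in PFC, -0.147 for Htr1a and Htr1b in NAc, -0.113 for Htr1a and Htr2a in NAc, and -0.0122 for Htr2a across regions. With RLE factors r across regions was -0.00644 for Htr1a and -0.0463 for Htr2a. Depth limits Htr1a in NAc most, where a library held 32 to 100 counts.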
